A study of Mus musculus with 12 samples.

Results

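The genes described here are 28 genes of cholesterol synthesis and of the SREBP pathway, taken by name from the deposited table of 23086 gene symbols. The table held 27 of them under the listed symbol, and *Msmo1* stood in it as *Sc4mol*, a synonym in RefSeq. All 28 were among the 12322 genes that passed the filter on low counts, and the lowest count of any of them in a library was 28. RNA was sequenced from embryoid bodies, aggregates of mouse embryonic stem cells (ESCs) that had begun to differentiate, grown for 2 days from A2lox.cre ESCs. In cells of this type a transgene inserted at the *Hprt* locus is switched on by the antibiotic doxycycline. The transgene of the FLAG-Lhx1 wild-type line codes for the homeodomain transcription factor LHX1 with a FLAG peptide tag, and that of the FLAG-Lhx1 mutant line for a mutant form of it. What the mutation is was not given in the sources used here. In both lines embryoid bodies were left without doxycycline (WTC16 for the wild-type line, MUTC16 for the mutant line) or received it for 16 h (WTD16 and MUTD16), with 3 libraries in each of the 4 groups. The labels name 1 line of each kind, so a difference between the lines cannot be told apart from a difference between clones. They do not tie the replicates to separate cultures. The p-values therefore weigh differences between groups only against the spread between these samples, and that spread may be technical.

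Cells build cholesterol from acetyl-CoA. The mevalonate arm leads to farnesyl diphosphate, which *Fdft1* commits to squalene, and the squalene and sterol arm closes the rings and trims the sterol to cholesterol. The transcription factors SREBP-1 (*Srebf1*) and SREBP-2 (*Srebf2*) switch these genes on: when membrane sterol is low, SCAP (*Scap*) escorts them from the endoplasmic reticulum to the Golgi, where proteases release the active part, and when sterol is high the INSIG proteins (*Insig1*, *Insig2*) hold SCAP back. SREBP-2 mainly drives sterol synthesis and SREBP-1 mainly fatty acid synthesis (*Fasn*, *Scd2*). *Stard4*, *Npc1* and *Npc2* move sterol inside the cell.

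Promoters of 22 of the 28 genes were found in the RefSeq table (build GRCm38.p6, 250 bases before to 50 bases after each start, 30 promoters in all). A sterol regulatory element spelled TCACNCCAC, searched on both strands, was in 1 of these 30 promoters, that of *Hmgcs1*, and in 1.24% of the 32851 mouse promoters in the table. The CCAAT box (CCAAT or, on the other strand, ATTGG), the site of the factor NF-Y that often stands beside SREBP sites, was in 21 of the 30 promoters, belonging to 20 of the 22 genes, and in 37.4% of all promoters. The E-box CACGTG, which reads the same on both strands, was in 6 of the 30, belonging to 5 of the 22 genes, and in 7.15% of all. The windows of *Scap* overlap and hold the same E-box. The homeodomain core TAATTA, also its own reverse complement, was in 1, that of *Ebp*, and in 5.29% of all. These are matches of letters, and only these windows were searched. The 250 bases before the start are printed for *Hmgcs1*, which was lower in the wild-type line than in the mutant line, and for *Nsdhl* and *Fasn*, which were higher. They lie at chr13:119690101-119690350 on the plus strand, chrX:72918271-72918520 on the plus strand and chr11:120824548-120824797 on the minus strand. Capitals mark the sterol regulatory element and the CCAAT boxes, and in *Fasn* a CCAAT and an ATTGG overlap.
Hmgcs1: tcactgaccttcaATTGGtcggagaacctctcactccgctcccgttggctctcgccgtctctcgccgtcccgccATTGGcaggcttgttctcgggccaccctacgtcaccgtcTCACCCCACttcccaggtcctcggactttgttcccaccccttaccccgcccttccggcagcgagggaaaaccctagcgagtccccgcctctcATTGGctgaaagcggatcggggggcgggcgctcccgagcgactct
Nsdhl: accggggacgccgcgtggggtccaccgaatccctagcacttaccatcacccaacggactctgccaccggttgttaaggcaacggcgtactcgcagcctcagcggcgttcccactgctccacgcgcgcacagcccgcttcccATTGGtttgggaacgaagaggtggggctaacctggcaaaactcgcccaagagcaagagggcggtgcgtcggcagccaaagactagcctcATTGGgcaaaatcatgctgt
Fasn: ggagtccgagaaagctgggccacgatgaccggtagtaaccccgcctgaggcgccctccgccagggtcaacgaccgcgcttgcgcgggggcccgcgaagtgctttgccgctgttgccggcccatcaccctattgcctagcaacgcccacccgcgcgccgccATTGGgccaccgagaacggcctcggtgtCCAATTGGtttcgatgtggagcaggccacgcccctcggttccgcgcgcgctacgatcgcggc
The bases shown for *Hmgcs1* hold the sterol regulatory element and 3 CCAAT boxes. The windows of *Nsdhl* and *Fasn* hold CCAAT boxes and no match to this spelling of the element. The same holds for *Idi1*, *Cyp51* and *Npc2*, which like *Hmgcs1* were lower in the wild-type line. Other spellings of the element were not searched.

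The libraries held 4289984 to 4850393 counts each. Induction followed the labels: *Lhx1* was at 289 to 307 CPM (counts after scaling all libraries to the same size) in WTD16 and 235 to 260.2 CPM in MUTD16, against 0.407 to 3.33 CPM without doxycycline. *Hprt*, the locus that carries the transgene, went from 10.5 ± 0.339 to 41.6 ± 3.70 CPM in the wild-type line (SD, n = 3) and from 7.44 ± 0.636 to 20.1 ± 1.63 CPM in the mutant line. Epiblast and pluripotency markers were present in every library, with a summed level of 5533 to 6183 CPM over 9 of 9 markers. Single markers ranged from *Nanog* at 45.1 to 80.4 CPM to *Dnmt3b* at 2442 to 2779. Some differed between the groups. The mean of *Fgf5* was 86.4 CPM in WTC16, 159 in WTD16, 173 in MUTC16 and 169 in MUTD16. That of *Tdgf1* was 183, 130.3, 269 and 268, while *Utf1* was at 406, 379, 394 and 396. Of 10 primitive and visceral endoderm markers, cells that handle lipid, 3 passed the filter, and all 10 together summed to 12.4 to 32.8 CPM. By group these sums ran from 19.5 to 20.2 in WTC16, 12.4 to 16.2 in WTD16, 22.9 to 32.8 in MUTC16 and 24.8 to 27.8 in MUTD16. *Ttr* was at 0 in WTC16, *Apoa1* in MUTC16 and *Afp* in MUTD16. Fibroblast markers summed to 13.0 to 24.0 CPM, and the hepatocyte genes *Alb* and *Cyp7a1* were at 0 in all groups. *Cyp27a1*, the other gene of the hepatocyte list, had counts in every library, at 0.611 to 3.59 CPM. The third WTC16 library stood apart in hypoxia genes (*Bnip3* at 229 CPM, against 58.5 and 63.3 in the other two), and the second WTD16 library held 1.45% of its counts in *Rn45s*, ribosomal RNA. With this pair of libraries left out, the numbers of the 28 genes called were 0 in the wild-type response, 0 in the mutant response, 1 in the difference of the responses, and 10 and 15 between the lines without and with doxycycline. Of all genes 4.37%, 0.0241%, 2.35%, 42.6% and 41.5% were called in the same comparisons with this pair left out. The corresponding numbers over all libraries are given with each comparison.

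Together the 28 genes took 0.431% to 0.465% of the counts of a library. This share was 0.431% to 0.448% in WTC16, 0.450% to 0.456% in WTD16, 0.443% to 0.465% in MUTC16 and 0.431% to 0.447% in MUTD16, so that WTD16 did not overlap with WTC16 or MUTD16. On the scaled levels the sums were 4403 to 4574 CPM in WTC16, 4569 to 4658 in WTD16, 4377 to 4587 in MUTC16 and 4222 to 4431 in MUTD16, where WTD16 lay above MUTD16 and just overlapped with WTC16. No test was made of these sums, in which the genes with the highest levels weigh most. From WTC16 to WTD16 the mean went from 922 to 999 CPM for *Fasn* and from 649 to 683 for *Scd2*. It went from 479.7 to 467 CPM for *Hmgcs1* and from 207 to 195 for *Sqle*. Over the 28 genes 17 log2 fold changes were above 0 and 11 below. Per kilobase of exon, over all 12 libraries, *Scd2* (117 CPM per kb), a stearoyl-CoA desaturase, and *Hmgcs1* (116), HMG-CoA synthase of the mevalonate arm, were highest. *Idi1* (77.6) and *Fasn* (73.9) came next in this mean, followed by *Acat2* (64.7) and *Fdps* (56.1). Of the regulators, *Insig1* (45.5) and *Srebf2* (32.9) were above *Srebf1* (15.2), *Insig2* (6.42) and *Scap* (5.93) on this scale. *Ebp* (3.84), a sterol isomerase, and *Tm7sf2* (2.37), a sterol reductase, were lowest. On this scale, but not in CPM, the order at the top turned with the line. Before division by exon length, mean CPM was higher for *Scd2* than for *Hmgcs1* in all 4 groups. It was closest in MUTD16, at 580.2 against 578. *Fasn* was likewise above *Idi1* in all 4, at 634 against 291 in MUTD16. The order per kilobase thus rests on the exon lengths, and the annotation used for counting was not given. The following values are per kilobase. *Scd2* was above *Hmgcs1* in the wild-type line (119 against 104 CPM per kb in WTC16 and 125 against 102 in WTD16) and below it in the mutant line (116 against 131 in MUTC16 and 106 against 126 in MUTD16). *Fasn* was above *Idi1* in the wild-type line (84.3 against 74.3 in WTC16 and 91.3 against 72.0 in WTD16) and below both *Idi1* and *Acat2* in the mutant line (62.0 against 81.3 and 64.4 in MUTC16, and 57.9 against 82.9 and 65.2 in MUTD16). In bulk RNA, fewer cells of a type and less RNA per cell cannot be told apart.

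**Figure D1:**
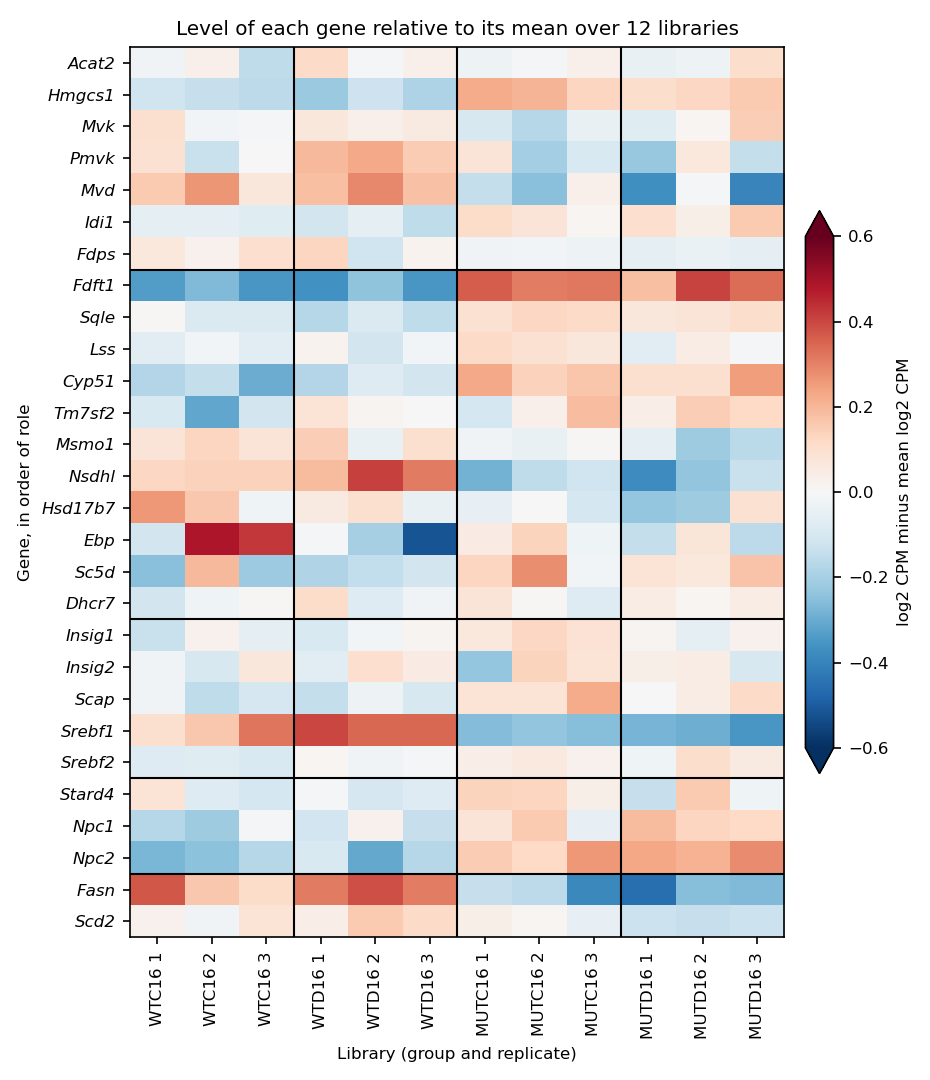
Level of each of the 28 genes (vertical axis, in order of role, with lines between roles) in each of the 12 libraries (horizontal axis, by group and replicate), as log2 CPM minus the gene's mean over the 12 libraries. *Fdft1*, *Hmgcs1*, *Cyp51* and *Npc2* are higher in the 6 mutant-line libraries and *Srebf1*, *Nsdhl* and *Fasn* in the 6 wild-type ones.

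None of the 28 genes was called when doxycycline switched on FLAG-LHX1: 0 of 28 passed edgeR's quasi-likelihood test at a Benjamini-Hochberg adjusted p under 0.05 in the wild-type line, where 5.32% of the 12322 genes tested did. DESeq2 and limma-voom also called 0 of 28. At an unadjusted p under 0.05 there were 4 (*Pmvk*, *Nsdhl*, *Ebp* and *Srebf1*), against 16% of all genes. Log2 fold changes ran from -0.52 to 0.20, with a median of 0.04 beside 0 over all genes, and 17 were above 0. The libraries of the groups did not overlap for 6 genes (5 higher and 1 lower), against 18.9% of all genes. The 95% interval stayed within 1.5-fold in either direction for 27 of the 28, within 1.3-fold for 25 and within 1.2-fold for 19. *Ebp* was the exception to the first, at a log2 fold change of -0.52 (interval -0.91 to -0.13, adjusted p = 0.122) on 8.09 to 12.2 CPM without doxycycline and 6.09 to 8.68 with it.

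The main control points of the pathway were measured closely. *Hmgcs1*, which condenses acetoacetyl-CoA and acetyl-CoA, was at 486, 479.5 and 473 CPM in WTC16 and 453, 484 and 464 in WTD16. These groups overlapped, and the log2 fold change was -0.04 (interval -0.12 to 0.05). *Sqle*, squalene epoxidase and a rate-limiting late step, was at 216, 202 and 202 CPM in WTC16 and 191, 202 and 193 in WTD16. Before rounding its treated libraries were all lower, the 1 gene of the 28 for which that held, and the log2 fold change was -0.08 (interval -0.18 to 0.02, adjusted p = 0.454). *Insig1*, itself a target of SREBP, was at 128, 143 and 135 CPM against 132, 139 and 142, all within one range. Its log2 fold change was 0.02 (interval -0.10 to 0.14).

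Both SREBP genes had slightly higher levels with doxycycline in the wild-type line, without passing the test. *Srebf1* was at 90.1, 94.1 and 105 CPM in WTC16 and 111, 107 and 107 in WTD16, with no overlap, and its log2 fold change was 0.16 (SE 0.06, adjusted p = 0.157). Without the third WTC16 library, the one high in hypoxia genes, *Srebf1* was called, at 0.23 (adjusted p = 0.0373), and with the second WTD16 library left out as well it was not, at 0.23 (adjusted p = 0.0566). *Ebp* was called without the first WTC16 library. Leaving out the first or the third WTC16 library thus gave 1 of 28 each, beside 4.49% and 4.71% of all genes. *Srebf2* was at 224, 225 and 222 CPM against 238, 233 and 235, again with no overlap, and the difference was small, at a log2 fold change of 0.07 (interval -0.02 to 0.17, adjusted p = 0.505). Their products act after cleavage, so RNA levels do not report on active SREBP.

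In the mutant line 0 of 28 were called with doxycycline, where 0.0162% of all genes were, 2 in number. DESeq2 and limma-voom again called 0 of the 28. At an unadjusted p under 0.05 there were 2 (*Msmo1*, a sterol methyl oxidase, and *Scd2*), against 4.69% of all genes. The median log2 fold change was -0.03 beside 0 over all genes, and 20 of 28 were below 0. The groups did not overlap for 6 genes, all lower with doxycycline, against 10.6% of all genes in either direction. The shares of all genes that were lower without overlap, or below 0, were not computed. Intervals stayed within 1.5-fold for 28 of 28, within 1.3-fold for 26 and within 1.2-fold for 22. *Hmgcs1* was at 616, 608 and 577 CPM without and 568, 576 and 589 CPM with doxycycline, overlapping between the groups. *Insig1* was at 147, 153 and 149 against 142, 135 and 143, where the treated libraries were all lower (log2 fold change -0.10, adjusted p = 0.999).

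**Figure D2:**
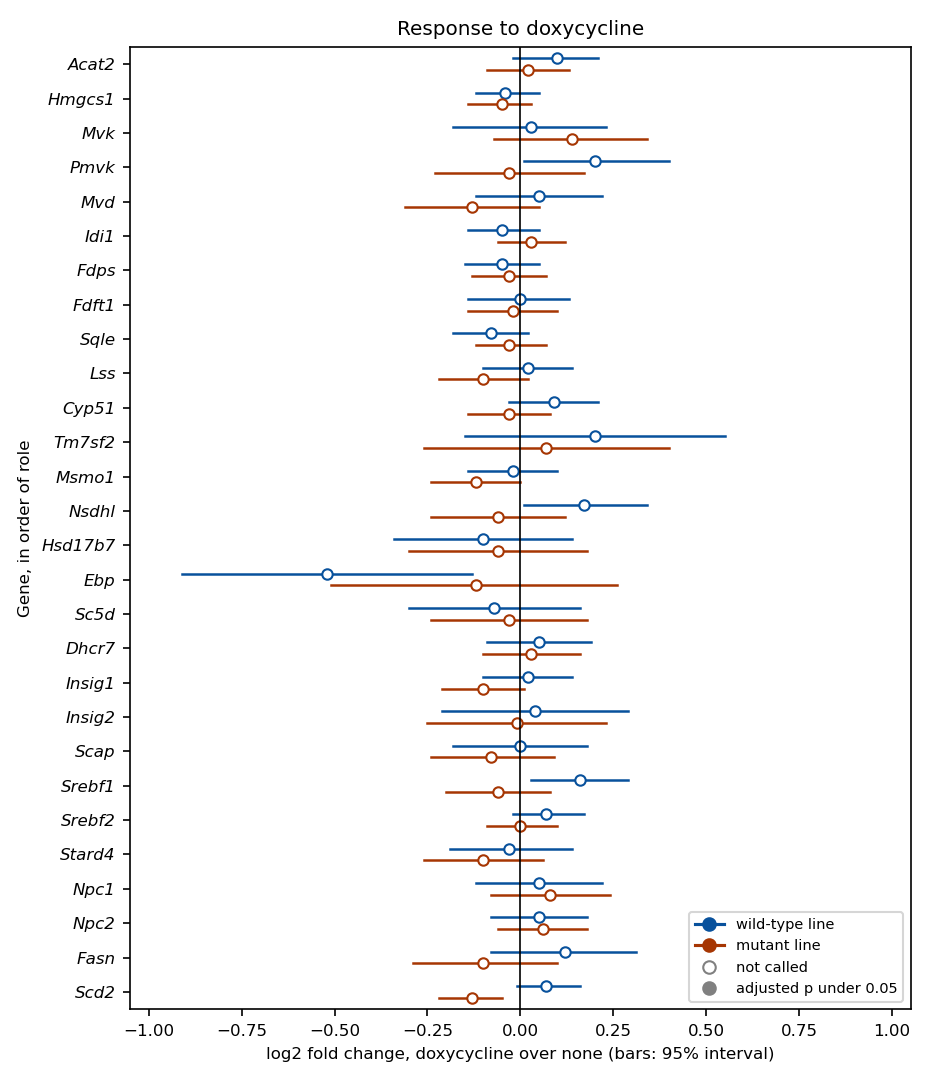
Log2 fold change with doxycycline over none (horizontal axis, bars are 95% intervals) of the 28 genes (vertical axis) in the wild-type line (blue) and the mutant line (red-brown). Open circles mark genes that did not pass the test, as all 28 did not in either line, and *Ebp* has the widest interval, from -0.91 to -0.13 in the wild-type line.

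The response of the wild-type line minus that of the mutant line was called for 1 of 28 genes, *Scd2*, which was higher, where 2.49% of all genes were called (1.4% higher and 1.09% lower). *Scd2* makes monounsaturated fatty acids. It was at 648, 627 and 673 CPM in WTC16 and 654, 708 and 688 in WTD16, and at 652, 641 and 614 CPM in MUTC16 and 581, 578 and 582 in MUTD16. Levels overlapped between the treatments of the wild-type line, while all 3 MUTD16 libraries were lower than every MUTC16 library. Neither response passed alone (log2 fold change 0.07, adjusted p = 0.416, in the wild-type line and -0.13, adjusted p = 0.805, in the mutant line). Their difference was 0.21 (SE 0.06, interval 0.08 to 0.33, adjusted p = 0.0489). The call lay at the threshold and was lost with RLE scaling (adjusted p = 0.0516) and with DESeq2 (adjusted p = 0.126). It was also lost when any 1 of 9 of the 12 libraries was left out, and over the 12 such fits the adjusted p ran from 0.0162 to 0.187. It was kept with both of the odd libraries left out (adjusted p = 0.0313).

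For the other 27 genes the difference of responses was not called. At an unadjusted p under 0.05 there were 2 of the 28, *Scd2* and *Srebf1*, against 12.9% of all genes. *Srebf1* differed by 0.22 (interval 0.03 to 0.41, adjusted p = 0.281). *Fasn*, fatty acid synthase, differed by 0.21 (interval -0.06 to 0.49, adjusted p = 0.544), and *Hmgcs1* by 0.02 (interval -0.10 to 0.13). The interval lay within 1.5-fold for 26 of the 28, all but those of *Tm7sf2* and *Ebp*.

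More genes were called between the lines than between the treatments. Without doxycycline 14 of 28 genes were called between the wild-type and the mutant line (50%), 4 higher and 10 lower in the wild-type line, where 45.5% of all genes were called (22.6% higher and 23% lower). With doxycycline 14 of 28 were called (50%), 7 higher and 7 lower, where 44.4% of all genes were (22.4% higher and 21.9% lower). At an unadjusted p under 0.05 there were 15 of 28 in either comparison, against 51.5% of all genes without and 50.7% with doxycycline. The shares called were near the background, so they are no result about these genes as a set. The median log2 fold change was -0.08 without doxycycline and -0.03 with it, beside 0 and -0.01 over all genes. The groups did not overlap for 17 genes (7 higher, 10 lower) without and for 16 (7 higher, 9 lower) with doxycycline, against 51.8% and 51.7% of all genes. The same 10 genes were called in both comparisons in the same direction, 4 higher (*Mvd*, *Nsdhl*, *Srebf1* and *Fasn*) and 6 lower in the wild-type line (*Hmgcs1*, *Idi1*, *Fdft1*, *Sqle*, *Cyp51* and *Npc2*). Over all genes 32.3% were called in both in the same direction. Calls made only without doxycycline (*Lss*, *Insig1*, *Scap* and *Srebf2*) or only with it (*Pmvk*, *Msmo1*, *Npc1* and *Scd2*) are not shown to differ between the treatments, since of these 8 genes only *Scd2* passed the test of that difference.

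**Figure D3:**
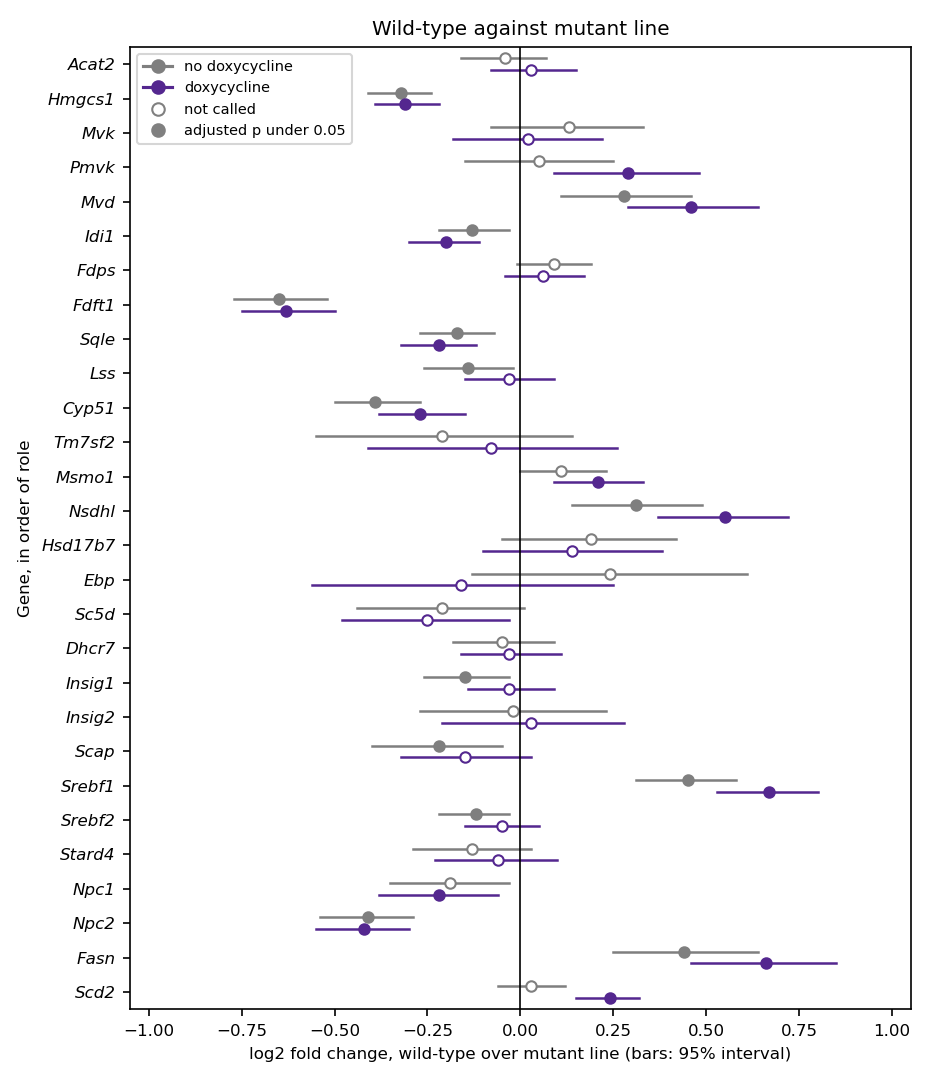
Log2 fold change of the wild-type over the mutant line (horizontal axis, bars are 95% intervals) of the 28 genes (vertical axis) without doxycycline (grey) and with it (purple), where filled circles passed the test. *Fdft1* is lowest in both comparisons, at -0.65 and -0.63, and *Srebf1* highest with doxycycline, at 0.67.

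In the mevalonate arm 3 of 7 genes were called without doxycycline (1 higher, 2 lower) and 4 of 7 with it (2 higher, 2 lower), beside 45.5% and 44.4% of all genes. *Hmgcs1* was at 473 to 486 CPM in WTC16 and 453 to 484 in WTD16, against 577 to 616 in MUTC16 and 568 to 589 in MUTD16. All 6 wild-type libraries were thus below all 6 mutant ones. The log2 fold change was -0.32 (SE 0.04, adjusted p = 4.55e-09) without and -0.31 (SE 0.04, adjusted p = 1.69e-08) with doxycycline. *Mvd*, the decarboxylase that makes isopentenyl diphosphate, moved the other way. It was at 68.5, 73.7 and 64.3 CPM in WTC16 and 55.6, 51.5 and 62.7 in MUTC16, with no overlap, and at 69.5, 74.8 and 69.4 in WTD16 and 47.6, 60.9 and 46.6 in MUTD16. The log2 fold change was 0.28 (adjusted p = 0.0055) without and 0.46 (adjusted p = 1.75e-05) with doxycycline. The first of these was lost without the second MUTC16 library (0.22, adjusted p = 0.0592). *Idi1*, the isomerase that follows *Mvd*, was lower by -0.13 and -0.20 on the log2 scale, and *Pmvk*, the kinase before *Mvd*, was called only with doxycycline, at 0.29 (adjusted p = 0.0138), a call DESeq2 did not make. *Acat2*, *Mvk* and *Fdps* were called in neither comparison, with log2 fold changes between -0.04 and 0.13.

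In the squalene and sterol arm 5 of 11 genes were called without doxycycline (1 higher, 4 lower) and 5 of 11 with it (2 higher, 3 lower), beside 45.5% and 44.4% of all genes. *Fdft1*, squalene synthase, gave the smallest adjusted p of the 28. It was at 91.8, 96.3 and 90.8 CPM in WTC16 and 89.8, 97.9 and 90.7 in WTD16, against 149, 143 and 144 in MUTC16 and 131, 153 and 146 in MUTD16. The highest wild-type library lay well below the lowest mutant one, and the log2 fold change was -0.65 (SE 0.06, adjusted p = 6.26e-13) without and -0.63 (SE 0.06, adjusted p = 1.52e-12) with doxycycline. In the GENCODE M21 annotation 774 exonic bases of *Fdft1* (18.3% of its exon length) lie opposite exons of *Ctsb*, the protease cathepsin B, which was itself lower in the wild-type line, by -0.92 (adjusted p = 8.83e-15) and -0.87 (adjusted p = 2.09e-14). Whether counting used strand was not given in the sources used here, so reads of the shared bases cannot be told apart. Mean levels were 46.9 CPM in WTC16 and 88.6 in MUTC16 for *Ctsb*, and 93.0 and 145 for *Fdft1*. The part of *Ctsb* reads in the *Fdft1* difference was not tested. *Hmgcs1*, *Idi1* and *Scap* also share exonic bases with opposite-strand genes, none of which were among the genes tested. *Lss* shares 381 exonic bases with the opposite-strand gene *4930483K19Rik*, which was lower in the wild-type line without doxycycline, by -0.45 (adjusted p = 0.0244). *Npc1* shares 511 with the opposite-strand gene *Rmc1*. The largest same-strand overlaps were those of *Fdps* with *Gm43738* (1124 bases, 26.7% of its exon length) and of *Tm7sf2* with *Vps51* (532 bases, 12.1%). Counting by strand would not separate the reads of these shared bases.

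*Cyp51*, the lanosterol demethylase, was at 131, 134 and 120.4 CPM in WTC16 and 131, 140.4 and 137 in WTD16, against 173, 163 and 166 in MUTC16 and 158, 158 and 176 in MUTD16. The lines did not overlap, with log2 fold changes of -0.39 (adjusted p = 1.43e-07) and -0.27 (adjusted p = 0.000115). Its exons share 166 bases with the opposite-strand gene *Akap9*, which was not called in either comparison. *Sqle* was at 229, 234 and 233 CPM in MUTC16 and 225, 227 and 231 in MUTD16, above all wild-type libraries (191 to 216). The difference was small, at -0.17 (adjusted p = 0.00408) and -0.22 (adjusted p = 0.000188). *Nsdhl*, a sterol dehydrogenase on the X chromosome, went the other way. It was at 50.4, 50.9 and 50.9 CPM in WTC16 and 52.8, 61.5 and 57.4 in WTD16, against 38.0, 41.7 and 42.6 in MUTC16 and 35.7, 39.3 and 42.2 in MUTD16. All 6 wild-type libraries were higher, by 0.31 (adjusted p = 0.00264) and 0.55 (adjusted p = 5.21e-07). *Lss*, lanosterol synthase, was called only without doxycycline (-0.14, adjusted p = 0.0451), and *Msmo1* only with it (0.21, adjusted p = 0.00259). The call of *Lss* was lost in 13 of 14 alternatives and kept with limma-voom. Among those that lost it were DESeq2, RLE and upper-quartile scaling, and the fits without any 1 of the 6 libraries compared. *Tm7sf2*, *Hsd17b7*, *Ebp*, *Sc5d* and *Dhcr7* were called in neither, with log2 fold changes between -0.25 and 0.24.

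Of the 5 genes for sterol sensing and the SREBP factors, 4 were called without doxycycline (1 higher, 3 lower), where 45.5% of all genes were, and 1 with it (higher), where 44.4% were. *Srebf1* was that 1. It was at 70.4, 71.4 and 70.6 CPM in MUTC16 and 69.3, 68.8 and 66.1 in MUTD16, and all 6 wild-type libraries were higher (90.1 to 111). The log2 fold change was 0.45 (SE 0.07, adjusted p = 1.98e-07) without and 0.67 (SE 0.07, adjusted p = 2.49e-12) with doxycycline. The opposite-strand gene *Rai1* shares 109 exonic bases with *Srebf1* and differed in the other direction, by -1.01 and -0.85. The table gives 1 value per gene, so the SREBP-1a and SREBP-1c transcripts were not separated. *Srebf2* was at 243, 246 and 240.2 CPM in MUTC16 and 232, 254 and 245 in MUTD16. It was lower in WTC16 by -0.12 (adjusted p = 0.0328), and in WTD16 the difference was -0.05 (interval -0.15 to 0.05, adjusted p = 0.42), so *Srebf1* and *Srebf2* did not differ in the same direction. *Insig1* was lower in WTC16 by -0.15 (adjusted p = 0.0308), and with doxycycline the difference was -0.03 (interval -0.14 to 0.09). *Scap* was lower without doxycycline, by -0.22 (adjusted p = 0.031), and *Insig2* was called in neither. The 3 calls of lower levels here, together with those of *Idi1* and *Lss*, were not made by DESeq2 or without the third WTC16 library. Without doxycycline 9 and 10 of 28 genes were then called, beside 34.5% and 41.2% of all genes.

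**Figure D4:**
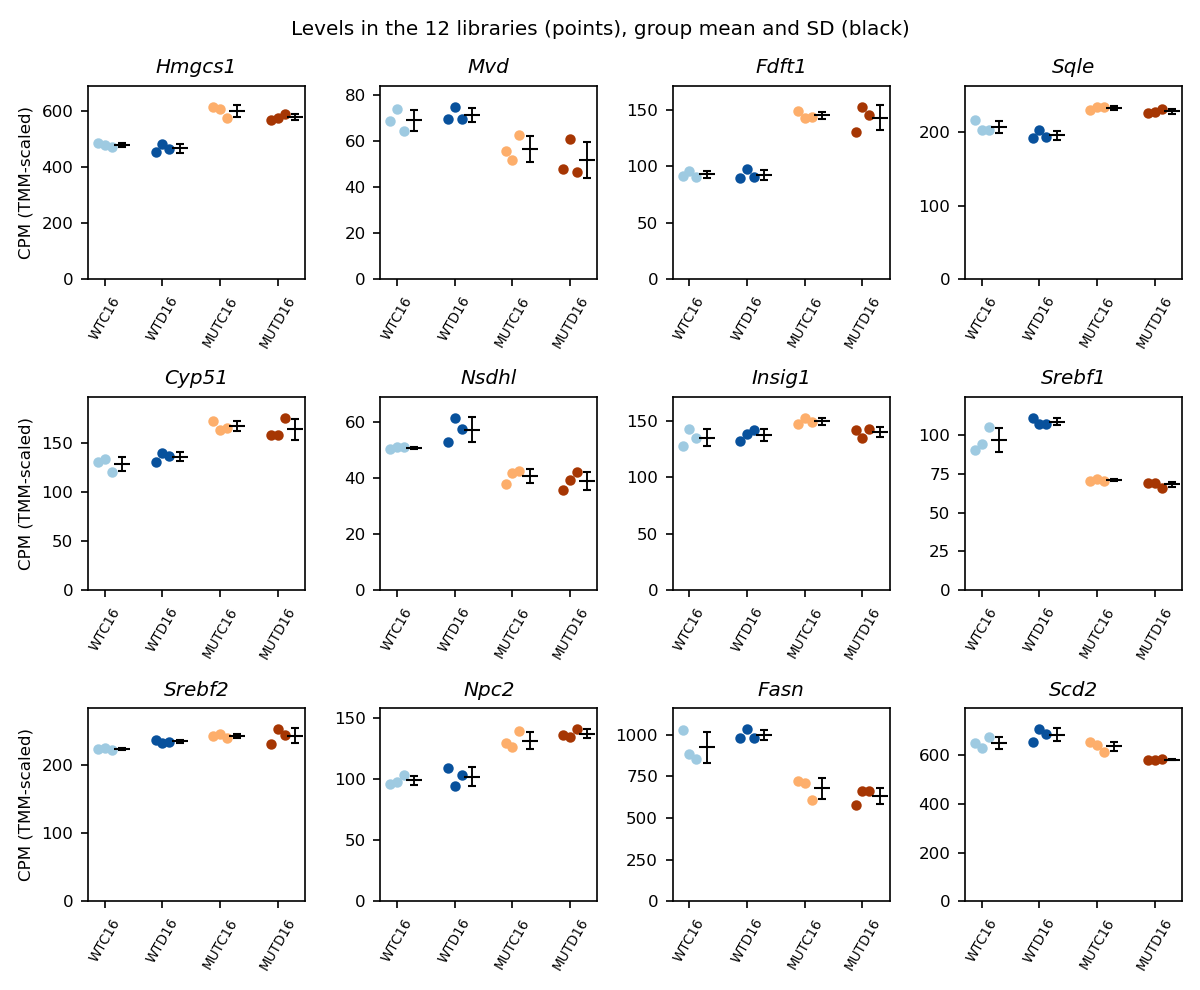
Level in CPM (vertical axis, from 0) of 12 of the genes in each library (points), by group (horizontal axis), with the group mean and SD of 3 libraries in black. The 6 wild-type libraries lie below the 6 mutant ones for *Fdft1* and *Hmgcs1* and above them for *Srebf1*, *Nsdhl* and *Fasn*, and *Scd2* is lowest in MUTD16.

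Of the 3 sterol transport genes, 1 was called without doxycycline and 2 with it, all lower in the wild-type line, and of the 2 fatty acid genes 1 and 2 were called, all higher, where 45.5% and 44.4% of all genes were called. *Npc2*, the soluble lysosomal protein that hands cholesterol to NPC1, was at 95.9, 97.7 and 103 CPM in WTC16 and 109, 93.8 and 103 in WTD16, against 129, 126 and 139 in MUTC16 and 136, 134 and 141 in MUTD16. The lines did not overlap, and the difference was -0.41 (adjusted p = 1.99e-07) and -0.42 (adjusted p = 8.03e-08). *Npc1*, its membrane partner, was at -0.19 (adjusted p = 0.0507) without and was called with doxycycline at -0.22 (adjusted p = 0.0224), a call DESeq2 did not make, while *Stard4* was called in neither. *Fasn* was at 1025, 886 and 856 CPM in WTC16 and 982, 1035 and 981 in WTD16, against 720.1, 710.2 and 605 in MUTC16 and 579, 664 and 660.1 in MUTD16. All 6 wild-type libraries were higher, by 0.44 (SE 0.09, adjusted p = 0.00197) and 0.66 (SE 0.09, adjusted p = 0.000132). *Scd2* differed by 0.03 (interval -0.06 to 0.12) without doxycycline and by 0.24 (adjusted p = 7.07e-06) with it. Sums of hypoxia genes, which moved between the groups, were 943 to 1956 CPM in WTC16, 841 to 1247 in WTD16, 1564 to 1794 in MUTC16 and 1288 to 1728 in MUTD16, and their part in these differences was not tested.

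Genes around the pathway gave a few calls in the wild-type response that the 28 genes did not. Of 12 further fatty acid and lipid synthesis genes tested, 1 rose and 2 fell with doxycycline in the wild-type line, beside 2.76% and 2.56% of all genes, and 0 were called in the mutant line. Between the lines 4 were higher and 2 lower without doxycycline (22.6% and 23% of all genes) and 3 higher and 4 lower with it (22.4% and 21.9%). The elongase *Elovl6* was at 167, 167 and 162 CPM in WTC16 and 137, 135 and 128 in WTD16, a fall of -0.31 (SE 0.05, adjusted p = 3.72e-05). In the mutant line it was at 175, 173 and 169 CPM without and 168, 169 and 179 CPM with doxycycline, and the difference of the responses was -0.31 (adjusted p = 0.01). The desaturase *Fads2* fell by 0.24 and *Scd1*, a relative of *Scd2*, rose by 0.17 (adjusted p = 0.0494) in the wild-type line, and the difference from the mutant response was not called for either (adjusted p = 0.454 and 0.127).

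Of 12 genes of sterol efflux, LXR signalling and esterification tested, 2 fell in the wild-type response beside 2.56% of all genes, and 0 were called in the mutant line. *Abcg1*, a sterol exporter that LXR switches on when sterol is high, was at 23.8 ± 2.72 CPM in WTC16 and 13.0 ± 0.918 in WTD16 (SD, n = 3). This was a fall of -0.87 (SE 0.15, adjusted p = 1.51e-05) with no overlap. In the mutant line it was at 18.9, 24.6 and 24.2 CPM without and 18.4, 24.8 and 20.6 with doxycycline, and the responses differed by -0.79 (adjusted p = 0.0109). *Soat1*, which esterifies cholesterol for storage, fell by 0.27 in the wild-type line (adjusted p = 0.0373). It was at 65.6, 60.6 and 77.3 CPM in WTC16 and 49.8, 62.0 and 57.2 in WTD16, with overlap. The highest of these was the third WTC16 library, the one high in hypoxia genes. In the mutant line its mean was 139 CPM without and 130.4 with doxycycline, and the difference of the responses was not called. *Soat1* was lower in the wild-type line than in the mutant line by -1.03 (adjusted p = 1.03e-17) without and -1.21 (adjusted p = 8.19e-20) with doxycycline. In the list 3 genes were higher and 1 lower between the lines without doxycycline, and 2 and 2 with it, beside 22.6% higher and 23% lower, and 22.4% and 21.9%, of all genes. *Scarb1*, a receptor for high-density lipoprotein, was higher in the wild-type line, by 0.44 and 0.33.

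Of 12 further genes of SREBP processing and sterol-regulated degradation, 1 fell in the wild-type response, the ubiquitin ligase *Rnf145*, by 0.23 (adjusted p = 0.00846, beside 2.56% of all genes called lower), and 0 were called in the mutant line or in the difference of the responses. Between the lines 3 were higher and 2 lower without doxycycline and 4 higher and 3 lower with it. As over all genes (22.6% higher and 23% lower, and 22.4% and 21.9%), genes were called in both directions. *Mbtps1*, the site-1 protease that makes the first cut in SREBPs, was higher in the wild-type line by 0.28 (adjusted p = 3.09e-06) and 0.27 (adjusted p = 7.91e-06). Of 13 isoprenoid branch genes, 0 were called in either response, and 2 were higher and 5 lower between the lines without doxycycline, and 3 and 3 with it, beside the same shares of all genes. Among them *Fnta*, a subunit of protein prenyltransferases, was higher in the wild-type line by 0.50 and 0.35.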

How the data were processed

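Embryoid bodies of 2 lines with or without doxycycline were measured in 12 libraries. The deposited table holds raw counts per gene symbol, and its columns were matched to samples by name. Per the submitters' processing notes, reads were handled with Trimmomatic 0.33 and TopHat2 2.1.1 on mm10, and limma is listed too. Which tool counted reads, over which annotation and whether by strand was not given in the sources used here. Per the labels, libraries were made with a TruSeq RNA kit.

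The counts were tested with edgeR 4.0.16 (quasi-likelihood, robust, TMM scaling, filterByExpr with a minimum count of 10 and a total of 15) in R 4.3.3. All 12 libraries were fitted with 1 mean per group, which left 12322 genes with 99.8% of the counts, and the procedure was tested on simulated data. Calls were made at a Benjamini-Hochberg adjusted p under 0.05 over all genes of a comparison, in 5 comparisons. A standard error is |log2 fold change| over the root of the F statistic, and 95% intervals use the fitted degrees of freedom. Levels are CPM of TMM-scaled libraries. Exon lengths come from GENCODE M21 (GRCm38) and promoters from RefSeq. Alternatives were RLE and upper-quartile scaling, no filter, DESeq2 1.42.0, limma-voom (limma 3.58.1), a replicate block, only the libraries compared, and libraries left out.

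The genes and lists were chosen with earlier results of these data known. Library values are given for genes called in a response or its difference, for the 8 smallest adjusted p and 4 largest changes of each line comparison, and for *Hmgcs1*, *Sqle*, *Insig1*, *Srebf1* and *Srebf2*. From each further list up to 3 called genes with the smallest adjusted p are named. *Ctsb*, *Akap9*, *Rai1* and *4930483K19Rik* were chosen with their values in view. No replicates were merged, as chi-square tests set every pair within a group apart.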

Additional observations from a re-analysis of the deposited data

Results flagged for a closer look

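*Scd2* was the gene among the 28 whose response to doxycycline differed between the lines by a test of the difference itself. The wild-type response minus the mutant response was 0.21 on the log2 scale (SE 0.06, edgeR's quasi-likelihood test, Benjamini-Hochberg adjusted p = 0.0489). This call was lost in 15 of 19 alternatives, among them DESeq2, limma-voom, RLE scaling and 9 of the 12 fits with 1 library left out, with the adjusted p between 0.0162 and 0.187. The libraries of the mutant line were lower with doxycycline in 3 of 3, at 578 to 582 CPM against 614 to 652.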

How the results depend on the processing

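The 0 of 28 genes called in the mutant response stayed at 0 under all alternatives run. In the wild-type response the count ran from 0 to 1 when single libraries were left out, and was 0 under the other alternatives. The difference of the responses went from 1 gene to 0 with RLE scaling, upper-quartile scaling, no filter on low counts, DESeq2, limma-voom and the replicate block, and from 0 to 1 with single libraries left out. The *Scd2* difference stayed between 0.18 and 0.24, with an adjusted p from 0.0162 to 0.187. Between the lines without doxycycline DESeq2 called 9 genes, beside 34.5% of all genes. Leaving out single libraries gave 9 to 12, beside 39.3% to 41.2% of all genes. With doxycycline DESeq2 called 12, beside 33% of all genes. Leaving out single libraries gave 12 to 14 there, beside 38% to 39.7%. These shares were all below those of the main fit, 45.5% without and 44.4% with doxycycline. The cause of these shifts was not tested, beyond the smaller number of libraries when some are left out. Values near 0 that changed sign were none of them called: *Insig1* in the wild-type response (-0.02 to 0.06 over single libraries left out, -0.02 without the first WTC16 library, 0 without the third WTD16 library), *Srebf2* in the mutant response (-0.03 to 0.04, with -0.01, -0.03 and 0 without the third MUTC16, the second MUTD16 or the third MUTD16 library), *Hmgcs1* in the difference of responses (-0.01 to 0.04, and -0.03 without both libraries that stood apart, 0 without the first MUTC16 and -0.01 without the second WTD16 library) and *Insig1* between the lines with doxycycline (-0.05 to 0, with 0 without the first WTD16 library). Replicate numbers did not pair the samples: over 12 same-numbered pairs the correlation of deviations ran from -0.06 to 0.08. With the replicate block 13 and 14 genes were called between the lines without and with doxycycline, beside 44.7% and 43.5% of all genes. In either response 0 were called, beside 5.02% of all genes in the wild-type line and 0.0162% in the mutant line. Depth limits *Ebp* and *Tm7sf2* most, with 28 to 54 and 37 to 55 counts per library.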
